A study of Piaractus mesopotamicus with 6 samples.

Results

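The triad calcium release complex is the machinery that turns a voltage change at the surface of a muscle fibre into calcium release inside it. It was followed here in cultured muscle cells and in fast muscle of the fish pacu. Its members were 10 gene names, matched to the names of the deposited rows without regard to case. Of these, 9 were found, with 61 assembled transcripts, among 16345 names and 71447 transcripts in all. They were the ryanodine receptors ryr1a, ryr1b and ryr3, the voltage sensor subunits cacna1sa, cacna1sb and cacnb1, the adaptor stac3 and the junctophilins jph1a and jph2. No row carried the name of triadin, trdn, so it was not analysed here.

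The study set 3 libraries of primary muscle cells (MC1 to MC3, cell libraries 1 to 3) against 3 libraries of fast-twitch muscle (MT1 to MT3, tissue libraries 1 to 3). All were wild type, from juvenile fish of 12 to 20 g held at 28 °C with 12 h of light and 12 h of dark, fed freely with commercial food. Each cell isolation used epaxial muscle of 12 animals, and the cells were kept in a complete growth medium of DMEM, 10% fetal bovine serum and 1% antibiotics, whereas tissue was taken from 6 animals. The labels do not say which animals or cultures stand behind each library, nor whether animals were pooled, so p-values measure only the spread between these libraries, which may be technical.

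In a fibre, the surface membrane folds inward as the transverse tubule, which meets the sarcoplasmic reticulum, the calcium store, at the triad. The dihydropyridine receptor in the tubule senses voltage and opens the ryanodine receptor in the reticulum through physical coupling, and junctophilins hold the membranes together. In zebrafish, ryr1a and cacna1sa are known from slow muscle and ryr1b, ryr3 and cacna1sb from fast muscle.

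Values are normalised read counts, that is reads divided by 1 size factor per library, and a gene's value is the sum over its transcripts unless a transcript is named. Reads recovered from these values summed over all rows to 105795157 to 124752600 per library, a sum that can count a read more than once. The reads given for a gene are summed over its transcripts and can likewise count a read more than once. Transcript lengths are not given, so levels were not compared between genes. Fast fibre markers, 21 of 23 listed, made up 17.8% to 21.3% of the MT signal and 0.0109% to 0.0515% of the MC signal, and none was at 0 throughout a group. Fibroblast markers, 14 of 16 listed, held 17.1% to 23.1% of the MC signal and 1.07% to 1.13% of the MT signal. Myoblast and satellite cell markers, 10 of 12 listed, held 0.0124% to 0.0355% of the MC signal and 0.00641% to 0.00844% of the MT signal. Fewer cells of a type and less RNA per cell cannot be told apart in bulk samples.

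By gene, 9 of 14 tested fibroblast markers were higher in culture, 2 were lower (postna and postnb) and 3 did not pass (col1a1a, col1a1b and col1a2), and the list summed to 7686320 to 10670100 in MC and 2718790 to 3367320 in MT. Of 9 tested myoblast and satellite cell markers 2 were lower (myod1 and itga7), 3 were higher (pax7b, cdh15 and met) and 4 did not pass. These counts lie near the shares over all names tested, of which 21.3% were lower and 30.5% higher. The list summed to 5599 to 16356 in MC and 20229 to 20888 in MT, lower in culture in spite of its larger share. That order of the sums rests on itga7, at 2438 to 9026 in MC and 14927 to 16226 in MT. Markers of other cell types were often lower as well. All 10 leukocyte and blood markers, of 15 listed, were lower (median log2 change -9.13), with sums of 52.8 to 163 in MC and 31179 to 54155 in MT, and lcp1 at 0 in MC. Of 5 neuron and Schwann cell markers tested, of 14 listed, 4 were lower, with sums of 2247 to 2527 in MC and 7883 to 9714 in MT, and mbpa and plp1b at 0 in MC. Most of that MC sum was snap25b, which did not pass the test, at 2132 to 2435 in MC and 2421 to 3027 in MT. Of 4 cardiac markers, of 12 listed, 3 were lower, with myh7 at 0 in MC, and of 8 slow fibre markers, of 11 listed, 6 were lower. Smooth muscle and pericyte markers were lower in 4 of 8 tested and higher in 4, and endothelial markers lower in 5 of 9 and higher in 2. The markers coro1a, lcp1, csf1rb, hbaa2, hbba2, alas2, slc4a1a, mbpa, plp1b, myh7, smyhc2 and flt1 lay below 10 in every MC library. They passed the filter of 10 in at least 3 libraries through MT alone, so they could not come out higher. The part of the marker differences in the results that follow was not tested.

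Nearly the whole measured complex was lower in cultured cells than in muscle. Of 9 members tested, 8 were lower, 0 were higher, and cacna1sa did not pass the test (limma on log2(value + 1), Benjamini-Hochberg adjusted p below 0.05 over 15712 names). Over all names tested, 21.3% were lower and 30.5% higher. The count of higher members was also 0 at an unadjusted p below 0.05 and with voom weights. The median log2 change, MC minus MT, was -8.13 over the members and 0.61 over all names. Over the fast fibre markers it was -12.77, with 20 of 21 tested lower. In 8 of 9 members every MC value lay below every MT value, against 24.9% of all names, and in 0 did every MC value lie above, against 41% of all names. With the libraries scaled to equal totals the median of all names moved to 3.11, with 7.38% of all names lower and 80.6% higher. The same 8 members were lower on that scale, with log2 changes from -8.27 to -2.53. There cacna1sa passed the test as higher, as most names did (log2 change 3.87, limma adjusted p = 0.0262).

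**Figure D1:**
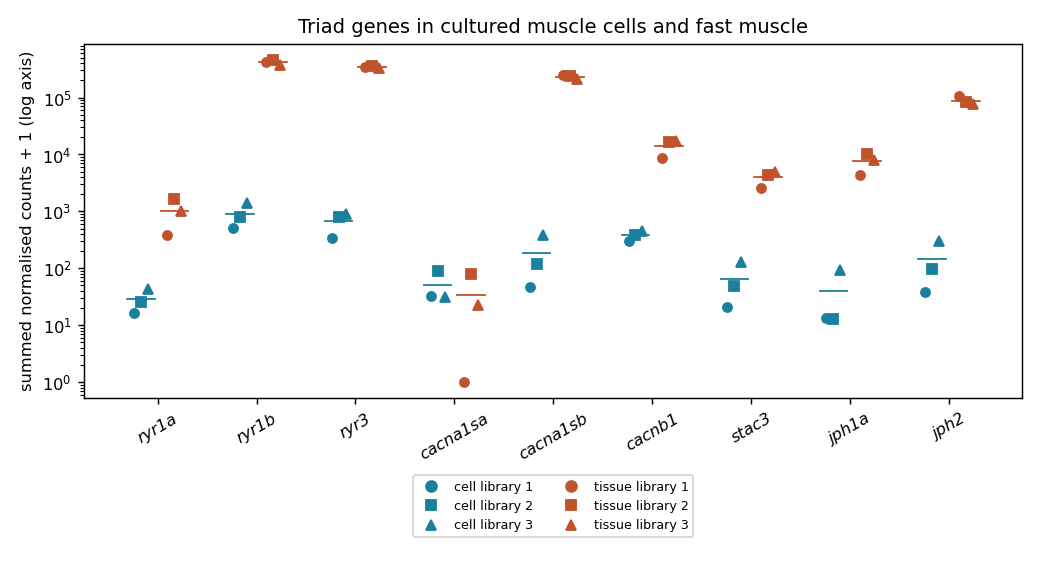
Summed normalised counts plus 1, on a log axis, of the 9 triad genes in each library, blue-green for cultured cells and red-brown for tissue, with marker shapes for libraries 1 to 3 and short lines for group means. The groups are apart for 8 genes and overlap for cacna1sa, which was at 0 in tissue library 1.

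Ryanodine receptors are the channels that let calcium out of the reticulum. The gene ryr1b stood at 513, 811 and 1416 in MC1 to MC3, against 429105, 454640 and 371406 in MT1 to MT3. The groups were far apart, the muscle samples lay close together, and the highest culture was 2.76 times the lowest. The means were 913 ± 460.1 (SD, n = 3) in MC and 418384 ± 42640 (SD, n = 3) in MT, so the cultures held 0.218% of the muscle level (log2 change -8.96, SE 0.36, limma adjusted p = 1.32e-05). The isoform ryr3 stood at 340.2, 796 and 894 in MC1 to MC3, against 345389, 356014 and 324328 in MT1 to MT3. Every culture was again below every muscle sample, MC1 was the lowest, and the cultures held 0.198% of the muscle mean (log2 change -9.10, SE 0.36, limma adjusted p = 1.32e-05). The slow-muscle form ryr1a had few reads in culture, 40, 56 and 96, which gave 15.6, 24.6 and 41.8 in MC1 to MC3, against 377, 1638 and 1022 in MT1 to MT3. Its transcripts DN6189_c0_g2_i8 and i9 each held 20, 19 and 44 reads in MC1 to MC3, which may be the same reads. For ryr1a, MT1 stood well below MT2 and MT3 yet above all cultures (log2 change -5.03, SE 0.68, limma adjusted p = 0.00108). The cultures held 2.70% of its muscle mean, and without MT1 the change was -5.62.

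The pore subunit of the dihydropyridine receptor carries the voltage sensor. Its fast-muscle form cacna1sb stood at 46.1, 117 and 383 in MC1 to MC3, against 250552, 235127 and 208442 in MT1 to MT3. The cultures spread over 8.30-fold, from 118 to 879 reads summed over 13 transcripts, and the muscle samples over 1.2-fold, with no overlap. The culture mean was 0.0787% of the muscle mean, the lowest share among the members (log2 change -10.81, SE 0.69, limma adjusted p = 5.95e-05), and 0.866% of all names had a lower change. The change was -10.08 without MC1 and -11.59 without MC3. The slow-muscle form cacna1sa did not follow. It stood at 31.3, 87.3 and 30.9 in MC1 to MC3, from 80, 199 and 71 reads, against 0, 77.4 and 21.9 in MT1 to MT3, from 0, 39 and 11 reads. The groups overlapped, with the highest value in MC2 and the lowest in MT1 (log2 change 1.89, SE 1.59, 95% interval -1.92 to 5.70, limma adjusted p = 0.346). The change was 0.09 without MT1 and 3.23 without MT2, and 1.15 with a pseudocount of 5. A floor of 3 counts, which covers counting error only, allows up to 8.02 normalised counts for the 0 in MT1.

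The beta subunit cacnb1 brings the pore subunit to the membrane. It stood at 297, 383 and 456 in MC1 to MC3, against 8613, 16474 and 17547 in MT1 to MT3. The groups did not overlap, and library 1 was the lowest of each. The cultures held 2.66% of the muscle mean (log2 change -5.18, SE 0.32, limma adjusted p = 5.19e-05). With 1 transcript per assembled gene the change was -8.72, and for the transcript of highest mean -8.56. The adaptor stac3, which the coupled channels need in order to work in muscle, stood at 19.6, 47.0 and 127 in MC1 to MC3, against 2536, 4332 and 4961 in MT1 to MT3. Library 1 was again the lowest of each group, without overlap, and the cultures held 1.64% of the muscle mean (log2 change -6.24, SE 0.67, limma adjusted p = 0.000402). The change of stac3 was -5.60 without MC1 and -6.92 without MC3.

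Junctophilins anchor the reticulum to the tubule. The gene jph2 stood at 36.8, 97.9 and 299 in MC1 to MC3, against 105021, 82708 and 77647 in MT1 to MT3. The muscle samples were within 1.35-fold of one another, while MC3 was 8.12 times MC1, and the groups were apart. The cultures held 0.163% of the muscle mean (log2 change -9.72, SE 0.69, limma adjusted p = 8.12e-05), and the change was -8.99 without MC1 and -10.49 without MC3. The gene jph1a stood at 12.5, 11.9 and 93.3 in MC1 to MC3, from 32, 27 and 214 reads, against 4285, 10376 and 8126 in MT1 to MT3. MC3 was far above MC1 and MC2, MT1 was the lowest muscle sample, and the groups did not overlap (log2 change -8.13, SE 0.82, limma adjusted p = 0.000307). The cultures held 0.516% of the muscle mean of jph1a, and without MC3 the change was -9.08.

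Transcript by transcript, 55 of 61 passed the filter of 10 normalised counts in at least 3 libraries and 6 did not. Rows below 10 in every library of 1 group passed only through the other group, which set their direction. Of the 55, 52 were lower in culture, 1 was higher and 2 did not pass the test (limma, adjusted over 65662 transcripts), against 19.7% lower and 27.4% higher among all transcripts tested. Every MC value lay below every MT value in 52, against 24.4% of all transcripts, and above in 1, against 37.7%. Lower rows that passed the filter through MT alone were DN5826_c0_g1_i1, DN5826_c0_g2_i5 and i6 of cacna1sb, and DN7934_c0_g1_i13 and i9 of cacnb1. So were DN32333_c0_g1_i1 of ryr1a, DN2018_c0_g2_i1 and i7 of ryr1b, DN3156_c0_g2_i1 and i3 of ryr3, and DN734_c0_g1_i1 of stac3. The 1 higher row passed through MC alone. The 61 transcripts belong to 18 assembled genes, the units in which the assembler groups related transcripts. For 33 of them another transcript of the same assembled gene had a mean within 10%, so reads that match several transcripts may be present in several rows, and such rows are not separate results. The transcript with the highest mean changed by -4.94 for ryr1a, -8.45 for ryr1b, -8.84 for ryr3, -10.64 for cacna1sb, -8.56 for cacnb1, -6.45 for stac3, -8.32 for jph1a and -9.63 for jph2, with limma adjusted p from 9.96e-06 to 0.000888. For cacna1sa it changed by -0.58 (limma adjusted p = 0.781), the opposite sign to the sum.

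**Figure D2:**
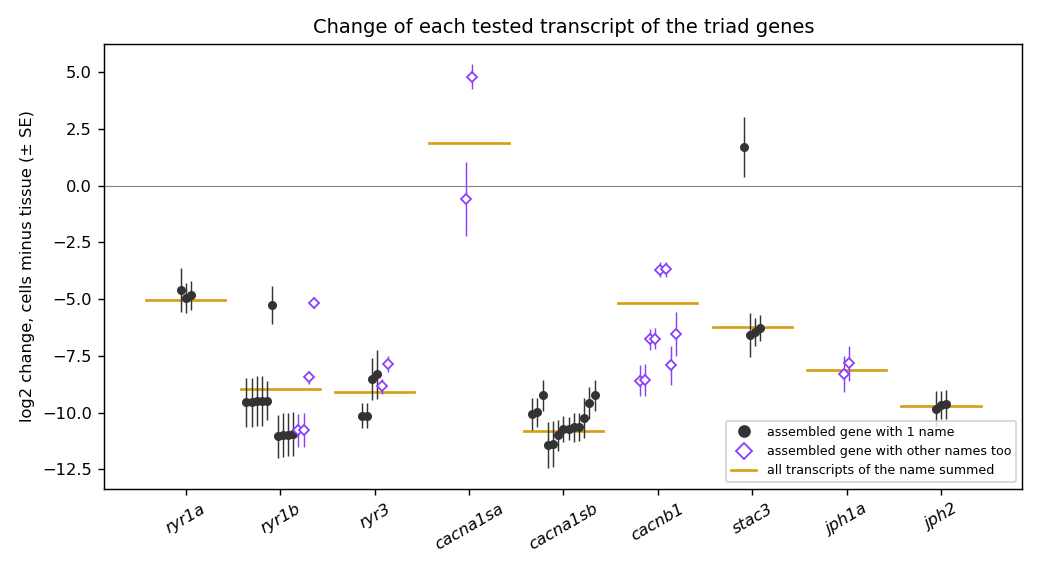
Log2 change, cells minus tissue, with its standard error for each tested transcript of the triad genes. Filled circles belong to assembled genes with 1 name, open diamonds to assembled genes with other names too, and yellow lines mark the summed transcripts; those of ryr1b run from -11.04 to -5.16, those of cacnb1 from -8.59 to -3.69, and the 3 of jph2 lie close together.

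Within ryr1b, the 14 transcripts differed in how far they were lower, and are grouped here after their values were seen. The 4 transcripts of assembled gene DN3156_c0_g4 had means of 30.7 to 32.6 in MC and of 34515 to 34883 in MT, with log2 changes of -11.04 to -10.95. Transcripts i6 and i8 of DN3156_c0_g6 changed by -10.79 and -10.77. Transcript i4 of that assembled gene instead stood at 313, 329 and 397 in MC1 to MC3, against 9657, 16867 and 11440 in MT1 to MT3, a log2 change of -5.16 (limma adjusted p = 1.67e-05), and i7 changed by -8.45. Together i4 and i7, chosen after their values were seen, gave 91.5%, 78.9% and 49.6% of the ryr1b sum in MC1 to MC3 but 25.4%, 22% and 24.0% in MT1 to MT3. The other 12 transcripts summed to 43.8, 171 and 713 in MC1 to MC3, a mean 1031-fold below muscle, against 164-fold for i4 and i7.

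The same assembled gene carries 3 names. Besides 4 transcripts of ryr1b and 2 of ryr3, it holds 4 of rin2, which encodes a regulator of small GTPases. The rin2 transcripts had means of 77.9 to 484 in MC and of 43.1 to 601 in MT, and none of the 4 passed the test (limma adjusted p from 0.0964 to 0.797). The part of rin2 reads in the ryr1b and ryr3 values was not tested. Counted only from assembled genes with 1 name, ryr1b stood at 13.3, 100.1 and 410 in MC1 to MC3, against 143666, 193121 and 144372 in MT1 to MT3 (log2 change -10.88, SE 1.1, limma adjusted p = 0.000307). Counted that way, ryr3 stood at 71.6, 147 and 377 in MC1 to MC3, against 159646, 191814 and 166385 in MT1 to MT3 (log2 change -10.08, SE 0.55, limma adjusted p = 3.86e-05). The groups stayed apart for both receptors, and both changes were larger than over all transcripts.

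Rows of cacnb1 also differed in culture, and are grouped here by their culture values, after these were seen. Transcripts i12 and i2 of assembled gene DN2163_c0_g1 had means of 161 and 160.3 in MC and of 2194 and 2193 in MT, with log2 changes of -3.69 and -3.70. The other 4 there had means of 7.03 to 21.6 in MC and of 2296 to 2399 in MT, with changes of -8.59 to -6.74. Rows within each group are near equal and may hold the same reads, so they are not separate results. Together i12 and i2 gave 91.8%, 84.6% and 80.5% of the cacnb1 sum in MC1 to MC3, but 29.6%, 31.0% and 31.4% in MT1 to MT3. DN2163_c0_g1 also carries 2 other names, and the part of their reads in the cacnb1 values was not tested. A further pair of cacnb1 transcripts, in DN7934_c0_g1, was listed at 0 in MC1 to MC3, against 21.4, 147 and 239 for i13 and 74.9, 498 and 364 for i9 in MT1 to MT3. By a floor of 3 counts per library they were at least 107-fold and 247-fold lower in culture. That assembled gene also holds 7 transcripts of the paralog cacnb2a, with means of 18.9 to 121 in MC and of 0 to 6.62 in MT.

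**Figure D3:**
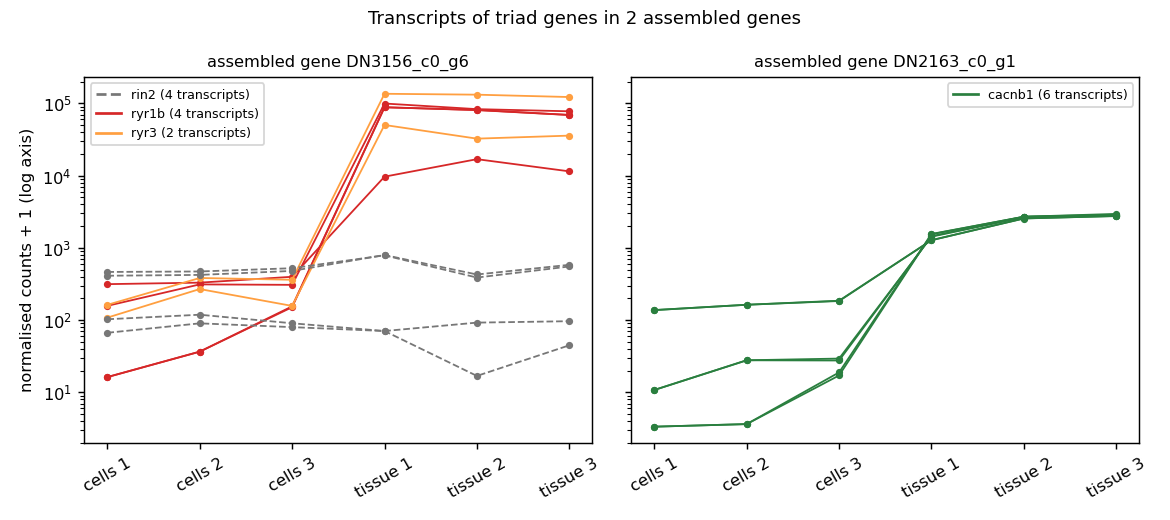
Normalised counts plus 1, on a log axis, of the transcripts of ryr1b, ryr3 and rin2 in assembled gene DN3156_c0_g6 (left) and of cacnb1 in DN2163_c0_g1 (right) in the 6 libraries; each line joins the values of 1 transcript, dashed for rin2. On the left ryr1b and ryr3 rise in tissue while no rin2 transcript passed the test, and on the right the 6 cacnb1 transcripts have means of 7.03 to 161 in cells and of 2193 to 2399 in tissue. Rows of the 2 other names in DN2163_c0_g1 are not drawn.

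The rows of cacna1sa were mixed. Transcript i8 of DN10235_c0_g1, the single member transcript that was higher, stood at 18.8, 48.7 and 21.4 in MC1 to MC3 and at 0 in MT1 to MT3. By the floor of 3 counts per library it was at least 4.45-fold higher in culture (limma adjusted p = 0.00041). It passed the filter through MC alone, so it could not come out lower. Transcript i12, at 6.26, 19.3 and 6.97 in MC1 to MC3 and at 0 in MT1 to MT3, missed the filter. Transcript i13 stood at 6.26, 19.3 and 2.61 in MC1 to MC3, against 0, 77.4 and 21.9 in MT1 to MT3, with overlap. With 2 further rows named CACNA1S, without a paralog letter, the assembled gene summed to 54.7, 141 and 50.6 in MC1 to MC3, against 0, 373 and 43.8 in MT1 to MT3, again with overlap. For stac3, the lone transcript of assembled gene DN16021_c0_g1 stood at 0.782, 10.1 and 22.7 in MC1 to MC3, against 0, 0 and 11.9 in MT1 to MT3 (log2 change 1.73, limma adjusted p = 0.312), while the other 3 changed by -6.58 to -6.28.

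Paralogs were compared within each library by the log2 ratio of their values, each with 1 added, in 4 pairs. The ratio of ryr1a to ryr1b was -4.95, -4.99 and -5.05 in MC1 to MC3, against -10.15, -8.12 and -8.50 in MT1 to MT3. Over all transcripts it was nearly constant among cultures and higher in every culture than in any muscle sample, by 3.93 on average (exact two-sided permutation p = 0.1, adjusted p = 0.133 over the 4 pairs). The difference was 3.31 without MT1 and 5.86 over assembled genes with 1 name, and 3.87 over all libraries and transcripts for the plain ratio, with nothing added. Over assembled genes with 1 name the ratio was not constant among cultures. There ryr1a stood at 15.6, 24.6 and 41.8 in MC1 to MC3, beside 13.3, 100.1 and 410 for ryr1b. For cacna1sa to cacna1sb the log2 ratio was -0.55, -0.42 and -3.59 in MC1 to MC3, against -11.55 in MT2 and -13.15 in MT3. In MT1, where cacna1sa was at 0, the added 1 fixes the value, and the floor of 3 counts puts the plain log2 ratio at -14.93 or below. The plain ratio was thus higher in every culture, by at least 11.70 on average and by 10.86 without MT1 (exact two-sided permutation p = 0.1 at the floor, adjusted p = 0.2). With 3 libraries a group, 0.1 is the smallest p this exact test allows. The log2 ratio of jph1a to jph2 was -2.03 ± 0.80 (SD, n = 3) in MC and -3.62 ± 0.87 (SD, n = 3) in MT with 1 added (exact two-sided permutation p = 0.1, adjusted p = 0.133). The plain ratios overlapped, at -3.05 in MC2 and -2.99 in MT2 (exact two-sided permutation p = 0.2, adjusted p = 0.267). The log2 ratio of ryr1b to ryr3 overlapped between the groups, at 0.43 ± 0.35 (SD, n = 3) in MC and 0.29 ± 0.08 (SD, n = 3) in MT (exact two-sided permutation p = 0.5, adjusted p = 0.5). Over assembled genes with 1 name its difference turned from 0.14 to -0.81.

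Libraries of a group were not alike in these genes. MC3 was the highest culture in 8 of 9 members and MC1 the lowest in 7 of 9, against 30.1% and 38.8% of all names. The order MC1 below MC2 below MC3 held for 7 members and for 17 of 21 fast fibre markers, against 18.3% of all names. It also held for 7 of 10 myoblast and satellite cell, 3 of 4 cardiac and 4 of 8 slow fibre markers. Among smooth muscle and pericyte markers it held for 4 of 8, and among fibroblast markers for 6 of 14. It held for 2 of 10 leukocyte and blood, 1 of 9 endothelial and 0 of 6 neuron and Schwann cell markers. Summed fast fibre markers were 4914, 16040 and 23734 in MC1 to MC3, and summed myoblast and satellite cell markers 5599, 7958 and 16356. MT1 was the lowest muscle sample in 5 members, ryr1a, cacna1sa, cacnb1, stac3 and jph1a, against 47.8% of all names, and the highest in cacna1sb and jph2. For ryr1a, cacna1sa and jph1a, MT1 lay below MT3 and MT3 below MT2. That order held for 8 of 8 measured slow fibre markers, 3 of 4 cardiac markers, 4 of 10 leukocyte and blood markers (hbaa2, hbba2, alas2 and slc4a1a) and 21.0% of all names. It held for 2 of 21 fast fibre, 2 of 14 fibroblast and 2 of 8 smooth muscle and pericyte markers. Among myoblast and satellite cell, neuron and Schwann cell and endothelial markers it held for 0 of 10, 0 of 6 and 0 of 9. Slow fibre markers, 8 of 11 listed and none at 0 throughout a group, summed to 60989, 229708 and 142019 in MT1 to MT3. The part of fibre types or other cell types in these values was not tested.

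**Figure D4:**
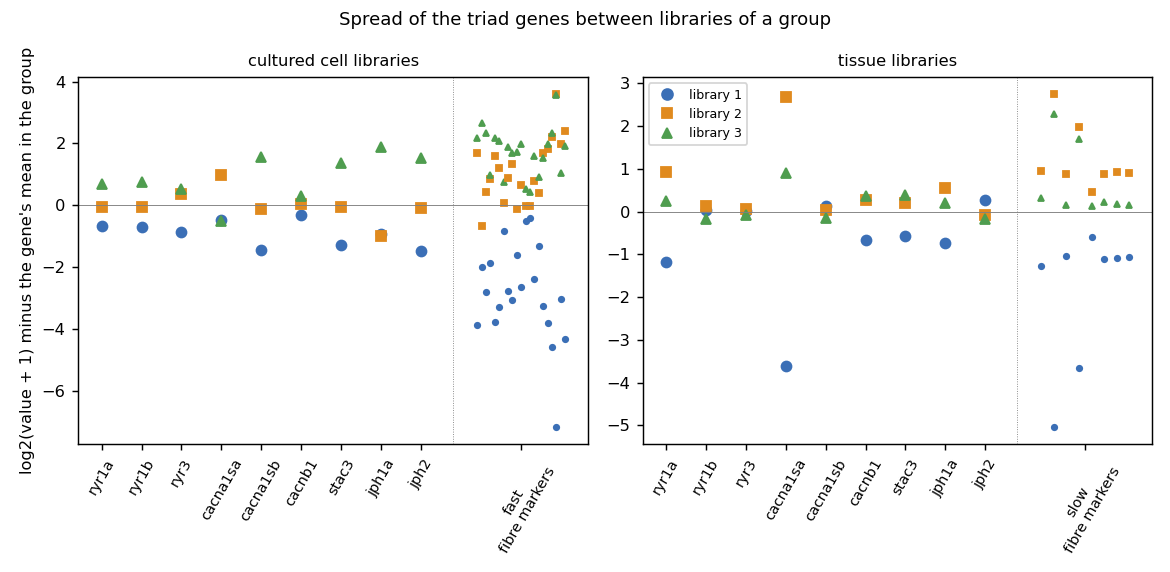
Log2(value + 1) of each triad gene minus its mean in the group, for the cell libraries (left, with fast fibre markers) and tissue libraries (right, with slow fibre markers); colours and shapes mark libraries 1 to 3. Cell library 3 is the highest for 8 of 9 triad genes. Tissue library 1 is the lowest for 5 of 9 triad genes (ryr1a, cacna1sa, cacnb1, stac3 and jph1a), near the 47.8% of all names. It is the lowest for all 8 slow fibre markers.

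The profile most like each member was sought among 12192 genes with a symbol, by the root-mean-square distance of centred log2 values over the 6 libraries. For ryr1b, whose summed rows had the largest mean, which is not a comparison of expression, the 5 nearest were ryr3 (distance 0.22), the fast-fibre alpha-actinins actn3b (0.25) and actn3a (0.28), plekha7a (0.30) and lmo7b (0.33). The nearest to cacna1sb was neb (0.19), which encodes the thin filament protein nebulin. For ryr3 it was ryr1b, for stac3 cavin4a (0.18), for jph2 arpp21 (0.21), for cacnb1 cryabb (0.20), for jph1a smyd1b (0.38), for ryr1a dtnba (0.22) and for cacna1sa jam2b (0.42). The distances describe likeness over 6 libraries in 2 groups and carry no test. Rows of ryr1b and ryr3 lie in the same assembled gene, DN3156_c0_g6, and the part of shared reads in their likeness was not tested. The gene lmo7b stood at 0, 0 and 1.74 in MC1 to MC3, where the 1 added before taking logs largely sets its values.

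Genes around the complex moved in both directions. Of 43 genes on the wider triad and junction list 30 were found and 27 tested: 15 were lower and 7 higher in culture, against 21.3% and 30.5% of all names, with a median log2 change of -1.72. Under equal totals 11 were lower and 14 higher, against 7.38% and 80.6% of all names. The gene tmem38a, for a potassium channel of the reticulum, had means of 115 ± 134 (SD, n = 3) in MC and 162293 ± 48192 (SD, n = 3) in MT (log2 change -11.38, limma adjusted p = 0.000212), and the change was -10.18 without MC1 and -12.47 without MC3. The gene srl, for the luminal calcium-binding protein sarcalumenin, changed by -8.42 (limma adjusted p = 6.56e-05), by -9.09 without MC3 and by -7.33 over assembled genes with 1 name. The gene ank1a, for an ankyrin, changed by -9.91 (limma adjusted p = 2.18e-05), and by -8.05 to -11.36 over the other choices of rows. Named after their values were seen, fkbp1aa and fkbp1ab encode immunophilins of the family that binds ryanodine receptors and changed by 2.17 and 2.82, whereas fkbp1b of the same family changed by -5.18. The junctophilin jph1b, which shares an assembled gene with jph1a, changed by -9.59. It stood at 3.13, 2.63 and 7.41 in MC1 to MC3, so it passed the filter through MT alone and could not come out higher. Without MC3 the 7 higher genes were 4.

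Calcium pumps and stores were lower in 7 of 8 tested, of 12 listed, against 21.3% of all names, with a median of -10.08. The gene atp2a1l, for a reticulum calcium pump, had means of 1368 ± 749 (SD, n = 3) in MC and 5928800 ± 1489270 (SD, n = 3) in MT (log2 change -12.25, limma adjusted p = 1.46e-05), and the change was -13.47 to -13.82 over the other choices of rows. The pump gene atp2a2b changed by -8.18, by -9.21 for its transcript of highest mean, but by 7.07 over assembled genes with 1 name. The calcium store gene casq1a changed by -13.51, by -12.55 without MC1, by -12.32 with a pseudocount of 5 and by -14.43 with voom weights. It stood at 0, 5.71 and 6.97 in MC1 to MC3, so it passed the filter through MT alone and could not come out higher. The 1 gene that was higher, named after its value was seen, was calr3b, for a calreticulin, at 3.01 (limma adjusted p = 0.00293).

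Paralogs of the triad channels often went the other way, though for some of them the filter set the direction. Of 44 listed 16 were found and 15 tested, and 10 were higher in culture, against 30.5% of all names. None was lower by limma, at an unadjusted p below 0.05 or with voom weights (0 each). The 15 include CACNA1S, whose 2 rows lie in the assembled gene of the member cacna1sa and which did not pass the test. The median log2 change was 2.77, or 2.18 with names at 0 in muscle set at their bound. Those at 0 in muscle were cacna1c, cacna1ea, cacna1ib and cacnb4a. They and cacna1ia reached 10 in 3 libraries through MC alone, so they could not come out lower. With a filter of 50, 6 of 9 tested paralogs were higher. Under equal totals 14 of 15 were higher, against 80.6% of all names. The gene itpr1a, for an inositol trisphosphate receptor, a calcium release channel of many cell types, had means of 2528 ± 460.3 (SD, n = 3) in MC and 367 ± 99.5 (SD, n = 3) in MT (log2 change 2.80, limma adjusted p = 0.000255). Its relative itpr2 changed by 1.28 (limma adjusted p = 0.0345) and did not pass without MC1, MC2, MC3 or MT2, at limma adjusted p of 0.0652 to 0.104, nor under TMM scaling, at 0.057. The low-voltage channel gene cacna1ia stood at 170.1, 399 and 456 in MC1 to MC3, against 0, 5.95 and 0 in MT1 to MT3 (log2 change 7.37, limma adjusted p = 0.000908), and the change was 8.30 without MT2. Over other pseudocounts and choices of rows the change of cacna1ia ran from 5.62 to 8.07. Named after its value was seen, the L-type pore subunit cacna1c was at 0 in MT1 to MT3 and, by the floor of 3 counts per library, at least 14-fold higher in culture. Without MC1, MC2 or MC3 the 10 higher names were 6.

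Store-operated entry refills the reticulum from outside. Of 13 listed genes 10 were tested: 2 were lower, 1 was higher and 7 did not pass, with a median of 0.33. By name, stim2a was the only stim, orai or saraf gene past the test, and the other calls were trpc6a and trpc6b. Over all names 21.3% were lower and 30.5% higher. Under equal totals 1 was lower and 8 were higher, the latter near the 80.6% of all names on that scale. The calcium sensor gene stim2a had means of 57.4 ± 14.3 (SD, n = 3) in MC and 3775 ± 1157 (SD, n = 3) in MT (log2 change -5.99, limma adjusted p = 4.35e-05). Its relative stim1a stood at 1473, 1669 and 1886 in MC1 to MC3, against 332, 2775 and 2121 in MT1 to MT3, with overlap (log2 change 0.42, limma adjusted p = 0.664, and -0.54 without MT1). The cation channel gene trpc6b changed by 4.5 (limma adjusted p = 0.0259), or by 5.96 without MT2, and did not pass without MC1, MC2, MC3, MT1 or MT3, with changes of 3.77 to 4.93. It stood at 103, 33.4 and 66.2 in MC1 to MC3, against 0, 19.8 and 0 in MT1 to MT3. The filter of 10 in at least 3 libraries was thus met only with the MC values, which favoured a higher call. With pseudocounts of 0.5 and 5 and for the transcript of highest mean trpc6b changed by 5.16, 2.97 and 3.50. Named after its values were seen, trpc6a, 1 of the 2 lower genes, lay below 10 in every MC library. It passed the filter through MT alone, so it could not come out higher.

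**Figure D5:**
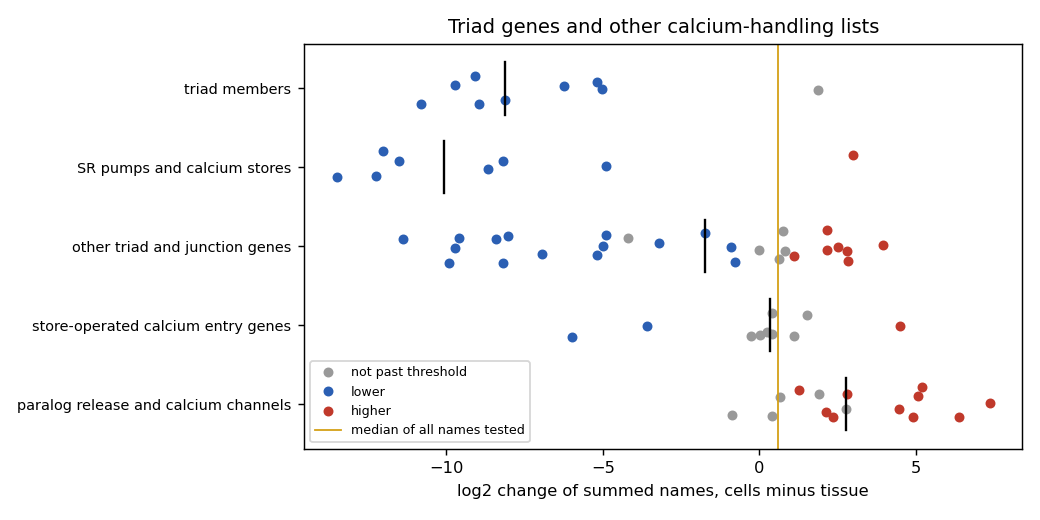
Log2 change of summed names, cells minus tissue, for the triad members and 4 other calcium-handling lists; each point is a gene, coloured by its call, short black lines are list medians and the long vertical line is the median of all names, 0.61. The medians are -8.13 for the triad members, -10.08 for pumps and stores and 2.77 for channel paralogs. Some channel paralogs passed the filter through cells alone, and casq1a among the stores through tissue alone, which set their direction.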

How the data were processed

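Poly(A) libraries of 6 samples were prepared with TruSeq stranded reagents, per the labels' protocols. The authors deposited 1 table of normalised read counts, that is counts divided by a size factor, for 71447 Trinity transcripts with symbols, per the file headers and its values. The tools listed in the submitters' processing notes are FastQC 0.11.8, Trimmomatic, Bowtie2 and DESeq2, beside the build GRCz11, and the notes give them no role. The counting tool is not given in the sources used here. All values (100%) were whole multiples, within 0.01, of what 1 read is worth, 0.391 to 0.439 in the cell libraries and 1.98 to 2.67 in tissue, so whole reads were recovered.

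Rows of 1 name were summed, ignoring case, and 6 rows with date-like names were left out. Sums and transcripts were fitted as log2(value + 1), which understates changes of low genes, with limma 3.58.1 (R 4.3.3, intensity trend, 4 residual degrees of freedom), over features at 10 or more in at least 3 libraries, with Benjamini-Hochberg adjustment over 15712 names or 65662 transcripts. The members and lists were chosen with earlier results of these data known. Named were all members, the 2 genes of highest mean and the 1 further most changed gene of each list, and the nearest profiles. No pair of libraries was a duplicate (chi-square per degree of freedom of at least 52.6). The fit was tested on simulated data. Alternatives covered pseudocounts, filters, scalings, a robust prior, voom weights, a replicate block, the choice of rows and leaving out each library. Exact tests used scipy 1.17.1 under Python 3.11.15, and plots matplotlib 3.10.9.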

Additional observations from a re-analysis of the deposited data

How the results depend on the processing

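In every alternative run that tested them, the 8 members stayed lower. Equal totals gave higher counts of 1 member, 2 member transcripts, 14 wider triad genes and 8 store-operated entry genes, with 1 entry gene lower. On that scale 80.6% of all names were higher and 7.38% lower. No filter gave 2 higher member transcripts. A filter of 50, under which cacna1sa was not tested, gave 0 of these, 6 higher channel paralogs, and 0 higher and 1 lower entry genes. With each library left out in turn, higher counts ranged from 4 to 7 for wider triad genes, 6 to 10 for channel paralogs and 0 to 2 for entry genes. The change of stim1a then ranged from -0.54 to 0.99 and that of cacna1sa transcript i13 from -2.38 to 0.76, and the latter was 1.28 under equal totals. With the highest transcript per name, 2 entry genes were higher, cacna1sa changed by -0.58 and the ryr1b to ryr3 difference was 0.40. Row choices made after seeing the data were 1 transcript per assembled gene, which gave -0.58 for cacna1sa and 9.99 for the cacna1sa to cacna1sb difference, and assembled genes of 1 name. The latter gave 5 higher channel paralogs, 5.86 for ryr1a to ryr1b, -0.81 for ryr1b to ryr3 and 7.07 for atp2a2b, and left no row of cacnb1, jph1a or cacna1sa. Plain paralog ratios, also added after seeing the data, turned no pair's direction. The causes were not tested. The planned edgeR and DESeq2 fits were not run.

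Same-numbered MC and MT libraries did not deviate together (correlations -0.03, -0.04 and -0.01). The labels state no pairing, and these values cannot exclude shared animals, since culture may change what animals share. With the replicate block the members were 8 lower and 0 higher, and 7383 names were called against 8133 without it. Of the calls, 58.9% were higher in culture, and 91.6% under equal totals.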
